A study of Bos taurus with 8 samples.

Results

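Bta-miR-192, bta-miR-194, bta-miR-215 and bta-miR-375, which are known from columnar epithelium of the gut and from endocrine cells, were followed in rumen fluid. They were chosen by name, as 4 of the 565 entries listed in the tables of the 8 libraries, and all 4 were listed in each of the 8. Rumen fluid was taken through the cannula of 4 non-lactating Holstein cows, on day 7 of a forage diet without concentrate (0%) and on day 1 of the full high-grain (HG) diet, once concentrate had been raised in steps over a week. Concentrate was 65% of the dry matter of the HG diet, and sampling took place 4 h after feeding. Small RNA of each sample gave 1 library, hence 4 libraries per diet, and libraries of the same number in the labels were taken as 1 cow. The read counts did not themselves show this pairing, on which the cow block and the counts of cows rest. Both diets came from the same animals in the same order, so diet and time of sampling cannot be told apart. The libraries held 300116 to 522804 miRNA reads, out of 1407364 to 4972752 reads in all. Rumen fluid is a mixture of feed, microbes and host material, and fewer cells of a type and less RNA per cell cannot be told apart in it. HG replicate 2 stood apart from the other libraries in its miRNA composition, and results that rest on it are given with and without it.

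MiR-192 and miR-215 are a family with a common seed, the bases by which a miRNA recognises its targets, and are abundant in the epithelium of intestine, liver and kidney. MiR-194 is made from the same primary transcripts, because 1 copy of its gene lies beside miR-192 and the other beside miR-215. MiR-375 is a miRNA of pancreatic islets and other endocrine cells and is also found in columnar epithelium. The epithelium of the rumen itself is a stratified squamous one, which is marked by other miRNAs such as miR-205.

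The authors' tables placed the 4 entries at 3 sites of the bovine genome UMD3.1. Bta-miR-192 lay on the plus strand of chromosome 29 from 43731679 to 43731701. Bta-miR-194 was placed on the same strand at the locus bta-mir-194-2, from 43731474 to 43731495, with 183 bases between both mature sequences. Bta-miR-215 lay on the minus strand of chromosome 16 from 24305748 to 24305769. The human entry hsa-miR-194-5p was placed 274 bases from it, at the locus bta-mir-194-1 from 24306044 to 24306065. Bta-miR-375 lay on the minus strand of chromosome 2 from 107667559 to 107667581. RefSeq's genes of the ARS-UCD2.0 assembly, from which neighbours but no positions were taken, put MIR192 and MIR194-2 inside the span of EHD1, and MIR215 and MIR194-1 inside that of IARS2. MIR375 lies inside no other gene, between CRYBA2 and CFAP65.

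All 4 miRNAs were of middle abundance. Among the 268 detected bovine entries (10 or more reads in any library), bta-miR-192 ranked 81 by total reads (3981 reads over the 8 libraries). Bta-miR-194 ranked 96 with 2860 reads, bta-miR-375 ranked 104 with 2154 reads and bta-miR-215 ranked 111 with 1725 reads. The mature sequences are 22 or 23 bases long, so read numbers were set side by side without a length correction. How efficiently each sequence enters a library was not measured, so the order below is one of reads. Bta-miR-192 was the highest and bta-miR-194 the second in all 8 libraries, and the 95% Wilson intervals of this pair were apart in 7 of the 8. Bta-miR-194 lay above bta-miR-375 with intervals apart in 6 libraries. Bta-miR-375 and bta-miR-215 were not clearly ordered, since their intervals overlapped in all but 3 libraries and bta-miR-215 was the higher in HG replicate 1. The intervals cover counting error only, because amplified reads are not independent molecules.

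**Figure D1:**
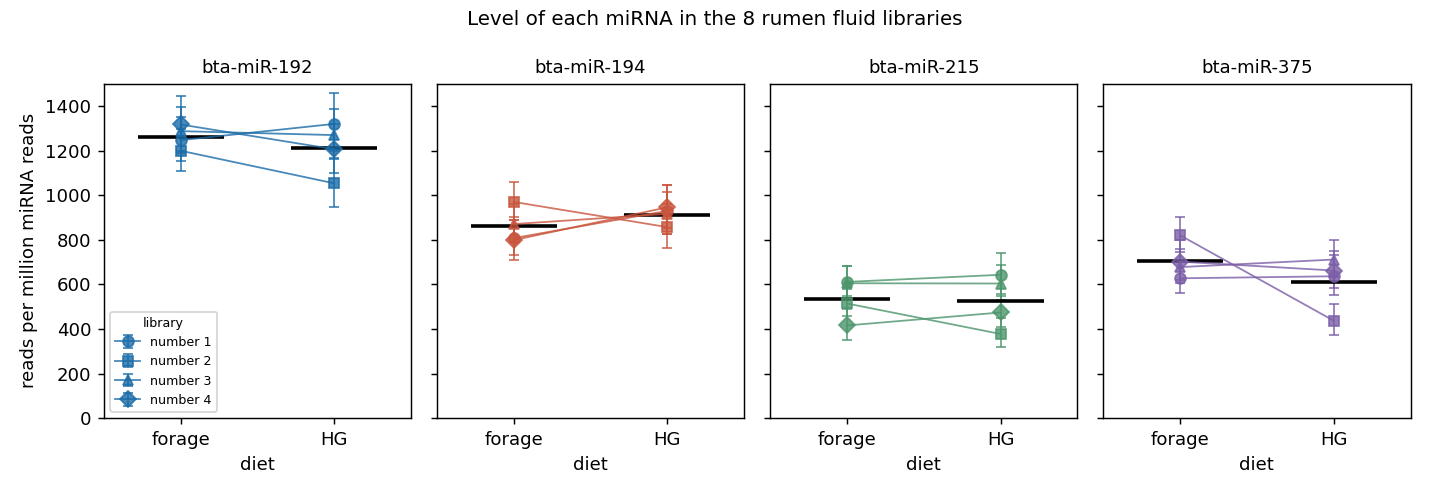
Reads per 1000000 miRNA reads of each miRNA (vertical axis) on the forage and the HG diet (horizontal axis). Each symbol is 1 library with its 95% Wilson interval, thin lines join libraries of the same number, and black bars are the means of 4 libraries. The lowest HG value of bta-miR-375, 437 in HG replicate 2, lies below all the other libraries, which hold 627 to 821.

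Bta-miR-192, the most abundant of the 4, made up 1247, 1199, 1287 and 1317 reads per 1000000 miRNA reads (RPM) in forage replicates 1 to 4, and 1319, 1053, 1269 and 1206 RPM in HG replicates 1 to 4. The means were 1262 ± 51.0 RPM (SD, n = 4) on the forage diet and 1212 ± 116 RPM (SD, n = 4) on the HG diet. Without HG replicate 2, the HG mean was 1265 ± 56.9 RPM (SD, n = 3), level with the forage mean. Both groups overlapped, with the highest value on the HG diet and the lowest, also on the HG diet, in replicate 2.

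Bta-miR-194, the partner of both other gut miRNAs, took 807, 970, 870 and 799 RPM on the forage diet and 930, 857, 916 and 946 RPM on the HG diet. The means were 862 ± 78.9 and 912 ± 38.8 RPM (SD, n = 4 each). Its highest value was that of forage replicate 2, and the groups overlapped.

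Bta-miR-215, which shares the seed of bta-miR-192, took 611, 515, 605 and 416 RPM on the forage diet and 643, 378, 604 and 474 RPM on the HG diet. The means were 537 ± 91.9 and 525 ± 122 RPM (SD, n = 4 each). Without HG replicate 2, the HG mean was 574 ± 88.5 RPM (SD, n = 3), above the forage mean. Replicates 1 and 3 were the high ones on both diets, and replicates 2 and 4 the low ones.

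Bta-miR-375, the endocrine miRNA, took 627, 821, 678 and 702 RPM on the forage diet and 636, 437, 711 and 662 RPM on the HG diet. The means were 707 ± 81.9 and 612 ± 120 RPM (SD, n = 4 each). Replicate 2 held both ends of this range, the highest on the forage diet and the lowest on the HG diet. Without HG replicate 2, the HG mean was 670 ± 38.1 RPM (SD, n = 3).

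Relative to all reads of the library instead of miRNA reads, these levels spread much more widely. Bta-miR-192, for example, ranged in forage libraries from 87.9 to 365 RPM, and in HG libraries from 90.8 to 352 RPM, of this kind. The share of miRNA reads among all reads moved alongside, between 6.67% and 29.3% of the library.

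The reads of these miRNAs were not all their own, because a read that maps to several entries was counted in full at each. Bta-miR-375 held the same number of reads as hsa-miR-375-3p in 8 of 8 libraries, and so did bta-miR-215 and hsa-miR-215-5p. A further column of the tables splits each such read evenly among its entries, and the number of shared reads follows from both counts. A pair of such equations per family gave the same whole number, within 0.05 reads, in 8 of 8 libraries. This step takes each read as divided by at most 3.

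For the seed family, 228 reads were listed at both bta-miR-192 and bta-miR-215, against 3753 at bta-miR-192 alone and 1497 at bta-miR-215 alone. The shared reads were 4.35% to 7.07% of bta-miR-192 and 10.6% to 15.2% of bta-miR-215. Without them, bta-miR-192 exceeded bta-miR-215 by 2.18-fold to 3.51-fold, in every library.

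For miR-194, 1604 of 3037 reads were listed at both loci. Another 1256 reads stood at bta-mir-194-2 alone, the copy beside miR-192 on chromosome 29, and 177 at bta-mir-194-1 alone, the copy beside miR-215 on chromosome 16. The reads at both loci were divided by 3, so they were counted at another entry besides these 2, which the tables do not name. The reads of bta-mir-194-2 alone made up 37.5%, 47.1%, 44.2% and 42.9% of the miR-194 reads in forage replicates 1 to 4. They made up 42.0%, 32.7%, 42.6% and 38.5% in HG replicates 1 to 4. HG replicate 2 held the lowest share (95% Wilson interval 27.6% to 38.2%). Reads of bta-mir-194-1 alone were 3.03% to 8.93%. The chromosome 29 copy thus led in each library, by 4.31-fold to 11.8-fold among reads that stood at 1 locus. Which locus gave the reads listed at both is not known.

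**Figure D2:**
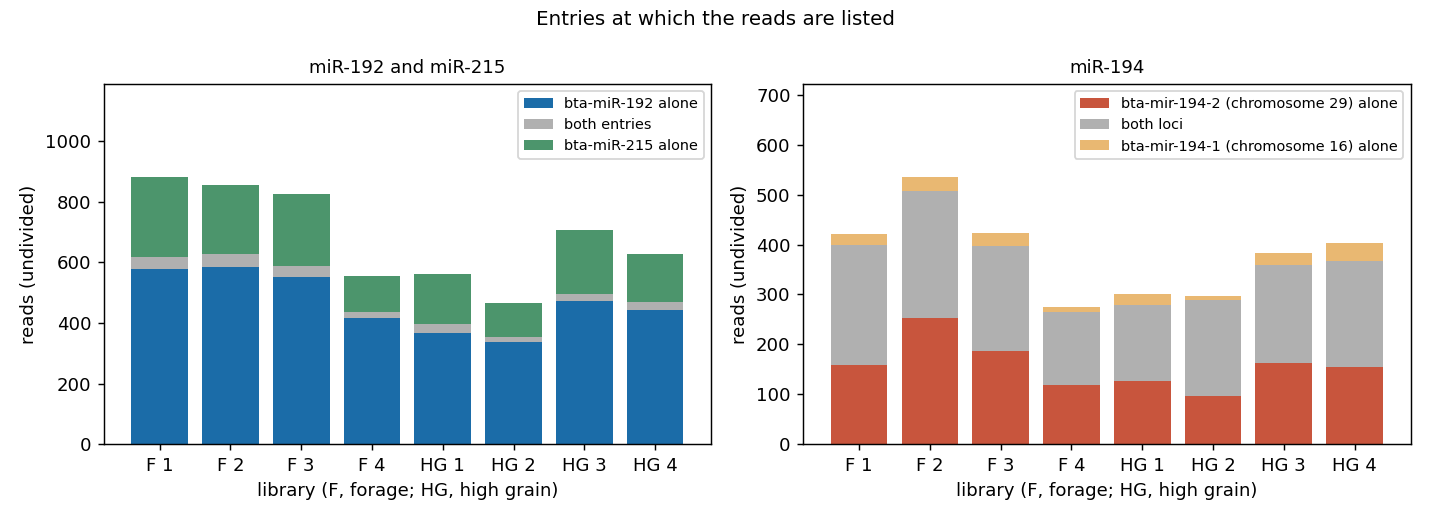
Undivided reads per library (vertical axis; F, forage and HG, high grain, each with its replicate number), stacked by the entry or locus at which they are listed. Left, the reads of bta-miR-192 alone, of both entries and of bta-miR-215 alone. Right, the reads of miR-194 at bta-mir-194-2 alone, at both loci and at bta-mir-194-1 alone, in which the last are 9 to 36 per library.

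The tables also count the distinct read sequences of an entry, which include variants in length or base. Bta-miR-192 had 25 to 34 of them per library, or 5.10 to 7.34 per 100 reads. Bta-miR-194 had 10 to 14 (2.76 to 3.94 per 100 reads), the fewest relative to its reads by mean on both diets. Bta-miR-375 had 8 to 17 and bta-miR-215 7 to 13. This number grows with depth, so it describes these libraries and was not compared between diets.

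The change of diet was tested for each miRNA with the cow as a block (edgeR quasi-likelihood test, two-sided, TMM normalization, Benjamini-Hochberg adjustment over 377 entries), to find which miRNAs respond to the transition to grain. None of the 4 miRNAs passed an adjusted p of 0.05, against 0.0% of all entries (0 of 377). An unadjusted p under 0.05 was reached by 2.39% of all entries (9 of 377) and by 0 of the 4 miRNAs. DESeq2 also called 0 entries, with 3 at an unadjusted p under 0.05. The CPM of forage and HG libraries overlapped for each of the 4 miRNAs, while they did not overlap for 4.51% of all entries. None of the 4 was lower on the HG diet in all cows, as 6.9% of all entries were.

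Bta-miR-192 was at 819 ± 31.9 CPM on the forage diet and 812 ± 32.2 CPM on the HG diet (SD, n = 4 each). CPM are counts per 1000000 of a library's summed counts, after TMM normalization. A read listed at several entries enters that sum several times, so CPM are lower than RPM of miRNA reads. Its log2 fold change was −0.01 (standard error 0.07, 95% interval −0.18 to 0.15, edgeR adjusted p = 0.930), and it was higher on the HG diet in 2 of 4 cows. Its CPM had a coefficient of variation of 3.67% over the 8 libraries. Of the 50 bovine entries with 1000 to 5000 reads, 48 varied more by CPM, and the median of the 50 was 12.3%. Counting error is smaller for the deeper of these entries, such as bta-miR-192 with 3981 reads, and was not allowed for. As RPM of miRNA reads it varied by 4.04% on the forage and 9.54% on the HG diet.

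Bta-miR-194 went from 559 ± 54.7 to 612 ± 21.6 CPM (SD, n = 4 each), with a log2 fold change of 0.13 (standard error 0.08, 95% interval −0.06 to 0.32, edgeR adjusted p = 0.788). It was higher on the HG diet in 4 of 4 cows, as were 8.49% of all entries. The groups overlapped through forage replicate 2, and as RPM of miRNA reads it was higher in 3 of 4 cows. Without replicate 2 on both diets the change was 0.17 (unadjusted p = 0.0282, adjusted p = 0.722 by edgeR), and with divided reads it was 0.06. Without replicate 4 it was 0.08 (edgeR unadjusted p = 0.463, adjusted p = 0.882). Leaving out HG replicate 2 alone, in a fit with no cow block, gave 0.10.

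Bta-miR-215 was at 348 ± 58.9 and 349 ± 63.7 CPM (SD, n = 4 each), a log2 fold change of 0.00 (standard error 0.10, 95% interval −0.25 to 0.25, edgeR adjusted p = 0.996). It was higher on the HG diet in 2 of 4 cows, and the sign of its change turned with the normalization.

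Bta-miR-375 went from 459 ± 56.1 to 407 ± 56.9 CPM (SD, n = 4 each), with a log2 fold change of −0.17 (standard error 0.15, 95% interval −0.54 to 0.20, edgeR adjusted p = 0.788). In 2 of 4 cows the HG value was the lower. This difference depended on replicate 2. Without both libraries of that number it was 0.01 (edgeR adjusted p = 0.983), and without HG replicate 2 alone, in a fit with no cow block, it was −0.08 (edgeR adjusted p = 0.919).

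**Figure D3:**
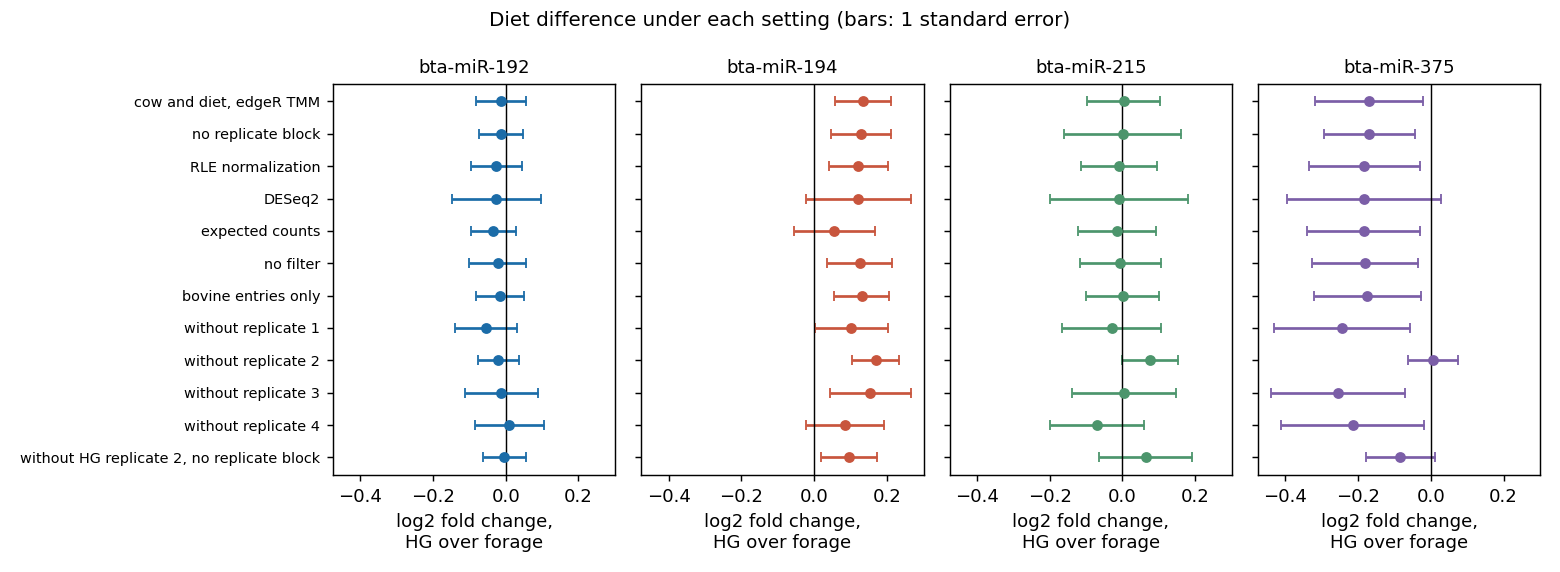
Log2 fold change of the HG over the forage diet (horizontal axis) for each miRNA, under the test with cow and diet (top row) and each other setting (rows). Points are estimates and bars are 1 standard error. Bta-miR-194 lies above 0 in all settings shown, from 0.06 to 0.17, and bta-miR-375 lies below 0 in all but the fit without replicate 2.

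Ratios within a library do not depend on its scaling and were compared between the diets over the 4 cows (exact sign-flip permutation test, two-sided, whose smallest possible p is 0.125). The log2 ratio of bta-miR-192 to bta-miR-194, its neighbour on chromosome 29, was 0.55 ± 0.18 on the forage diet and 0.41 ± 0.10 on the HG diet (SD, n = 4 each). The HG value was below the forage value in 4 of 4 cows, with 0.31 and 0.30 (forage and HG) in replicate 2 and 0.72 and 0.35 in replicate 4 (exact permutation test, p = 0.125, adjusted over 3 ratios 0.188). The mean change was −0.15, and −0.07 without replicate 4.

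The log2 ratio of bta-miR-215 to bta-miR-194 was −0.69 ± 0.27 on the forage and −0.83 ± 0.31 on the HG diet (SD, n = 4 each). It was also lower in 4 of 4 cows, with a mean change of −0.13 (exact permutation test, p = 0.125, adjusted 0.188). Replicate 2 had the largest difference, with −0.91 on the forage and −1.18 on the HG diet, and without it the mean change was −0.09. Both ratios have bta-miR-194 below the line and are not independent. With divided reads each was lower in 3 of 4 cows, and the mean changes were −0.09 for bta-miR-192 and −0.07 for bta-miR-215 to bta-miR-194. The log2 ratio of bta-miR-192 to bta-miR-215 changed by −0.02, in both directions among the cows (exact permutation test, p = 0.75, adjusted 0.75).

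**Figure D4:**
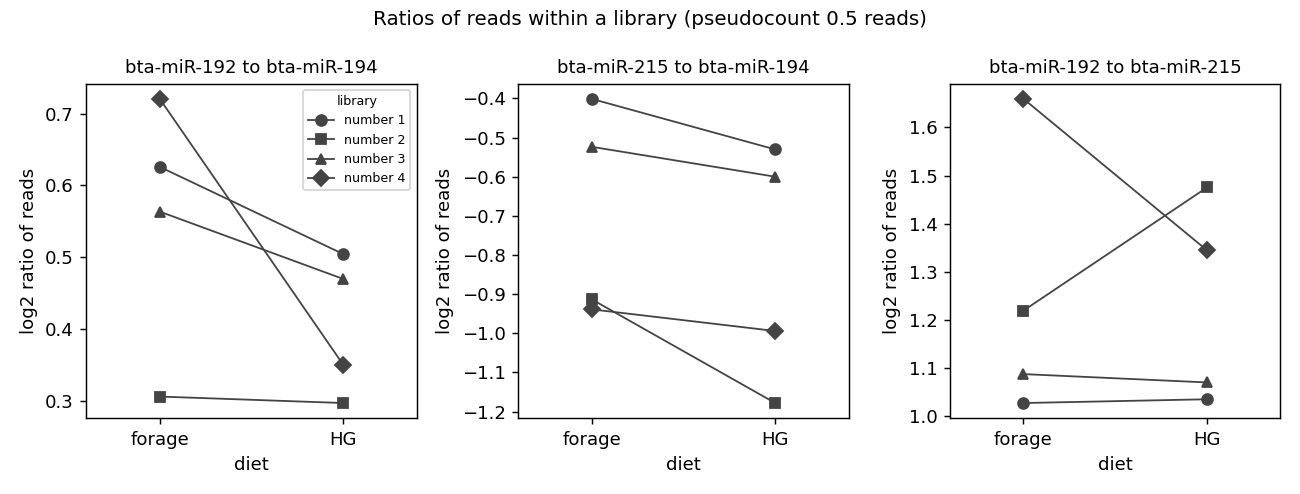
Log2 ratio of reads between 2 miRNAs of the same library (vertical axis, a different range in each panel) on the forage and the HG diet, with lines joining libraries of the same number. The ratio of bta-miR-215 to bta-miR-194 is lower at the HG end of all 4 lines, and its values lie near −0.40 and −0.53 for number 1 and near −0.94 and −0.99 for number 4.

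Bta-miR-215 was also compared between the cows, for which the numbers of the libraries stand. On the forage and the HG diet it was at 393 and 416 CPM in replicate 1, 336 and 283 CPM in replicate 2, 394 and 390 CPM in replicate 3, and 270 and 309 CPM in replicate 4. Replicates 1 and 3 held the higher values on both diets, while replicate 4 was the lowest on the forage and replicate 2 on the HG diet. The change of its ratio to bta-miR-194 had an SD of 0.09 over the cows, against 0.27 for the forage ratios themselves. A test of the cow beside the diet, added after these values were seen, gave bta-miR-215 a range of 0.48 on the log2 scale (edgeR unadjusted p = 0.0377, adjusted p = 0.901), which did not pass. The unadjusted p was under 0.05 in 2.39% of all entries for the cow as well, and 0 of 377 entries passed the adjustment. The cow gave unadjusted p of 0.842, 0.355 and 0.902 by edgeR for bta-miR-192, bta-miR-194 and bta-miR-375. Without HG replicate 2, cow 2 is left with 1 library, which is assumed to vary like those of the other cows. In that fit 4 of 371 entries passed the adjustment, 32 had an unadjusted p under 0.05, and none of the 4 miRNAs passed. Bta-miR-215 had a range of 0.49 (edgeR unadjusted p = 0.00266, adjusted p = 0.112). The range of bta-miR-375 over the cows was 0.15 with HG replicate 2 and 0.39 without it (edgeR unadjusted p = 0.0209, adjusted p = 0.407). Without that library bta-miR-194 had an unadjusted p of 0.0951 and bta-miR-192 of 0.735 by edgeR.

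HG replicate 2 was set against the mean of the other 7 libraries, as a description of that library. Bta-miR-375 was lower by 0.45 on the log2 scale of CPM with 1 added, at 327 CPM against 403 to 536 in the others, its lowest value. Bta-miR-215 was at −0.33, with 283 CPM, above forage replicate 4 alone. Bta-miR-192 stood at −0.06 and bta-miR-194 at 0.15, its highest value with 641 CPM. Of all entries, 30.8% had their lowest CPM in this library and 35.5% their highest. In RPM of miRNA reads, bta-miR-192, bta-miR-215 and bta-miR-375 were all lowest in HG replicate 2, as were 49.6% of entries.

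**Figure D5:**
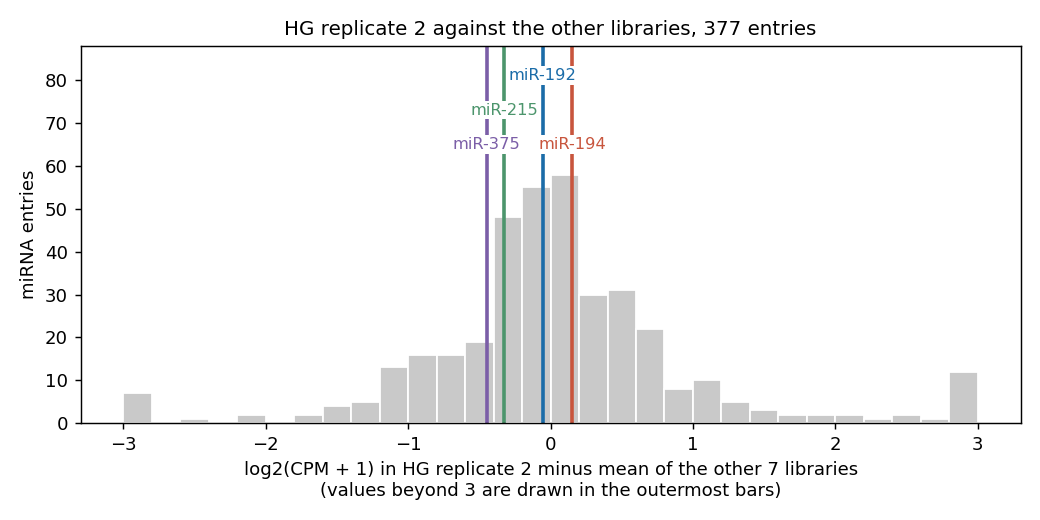
Number of miRNA entries (vertical axis) by the log2 difference of HG replicate 2 from the mean of the other 7 libraries (horizontal axis), over 377 entries. Coloured lines mark the 4 miRNAs, which lie between −0.45 (bta-miR-375) and 0.15 (bta-miR-194), while the quartiles of all entries are −0.36 and 0.45.

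Markers of other tissues were listed to place these levels, and their sums are given with and without HG replicate 2. The 4 miRNAs together held 3368 ± 126 RPM on the forage diet and 3261 ± 373 RPM on the HG diet (SD, n = 4 each), and 3439 ± 132 RPM (SD, n = 3) on the HG diet without that library, so that the direction turned. The miR-200 family of columnar and other epithelia (5 of 5 detected) held 11359 ± 209 and 12083 ± 1346 RPM, and 11425 ± 347 RPM without it. The squamous list (miR-205, miR-31 and miR-184) had 3 of 4 members detected, with bta-miR-203 not listed under this name and bta-miR-184 at 0 reads in 4 libraries. It held 11126 ± 163 and 12482 ± 3115 RPM, and without HG replicate 2 the HG sum was 10928 ± 251 RPM, below the forage sum. Of the endocrine and pancreatic list, bta-miR-7 of endocrine cells and bta-miR-216b and bta-miR-217 of pancreatic acinar cells had reads in all 8 libraries, and bta-miR-216a was not listed under this name. That list held 828 ± 77.0 and 902 ± 111 RPM, and 870 ± 113 RPM without it. Bta-miR-216b and bta-miR-217 had 200 and 134 reads in all.

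The hepatocyte miRNA bta-miR-122 held 2270 ± 145 and 2320 ± 509 RPM (2573 ± 77.6 RPM on the HG diet without HG replicate 2), more than any of the 4 miRNAs in each library. Erythrocyte miRNAs (3 of 3) held 203715 ± 1786 and 187528 ± 25215 RPM (200119 ± 1603 without it). Leukocyte miRNAs (4 of 4) held 21769 ± 80.7 and 20398 ± 2287 RPM (21537 ± 242 without it). In HG replicate 2 the sums of 3 lists were the highest of the 8 libraries, at 14056 RPM for the miR-200 family, 17144 RPM for the squamous and 997 RPM for the endocrine and pancreatic list. In RPM, members of these lists stood on the other side in that library. Bta-miR-200b (1892 RPM), bta-miR-216b (35.7 RPM) and bta-miR-217 (20.8 RPM) were at their lowest and bta-miR-184 was at 0. By CPM bta-miR-200b was not low there, at 1415 CPM against 1312 to 1417 CPM in the other libraries. The high endocrine and pancreatic sum came from bta-miR-7 (940 RPM). The sums of the other 3 were the lowest, at 1562 RPM for bta-miR-122, 149756 RPM for the erythrocyte and 16980 RPM for the leukocyte list, in which bta-miR-142-3p was at its highest (1238 RPM). In RPM bta-miR-375 was at its lowest in that library as well, and so were bta-miR-192, bta-miR-215 and 49.6% of all entries. The part of these lists in the levels of the 4 miRNAs was not tested.

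In the test of diet, 0 members of each list were called. The median log2 fold change of the miR-200 family was 0.16 (0.00 to 0.20 over its members), and 0.00 in the fit without HG replicate 2, which has no cow block. That of the squamous list was 0.16 (−0.25 for bta-miR-184 to 0.31 for bta-miR-31), and −0.02 without it. The endocrine and pancreatic list had a median of −0.13, with bta-miR-7 at 0.21, bta-miR-216b at −0.13 and bta-miR-217 at −0.16, and a median of 0.08 without it. Bta-miR-122 was at 0.05 (0.17 without it), the erythrocyte list at −0.08 (−0.02) and the leukocyte list at −0.05 (−0.02). The 4 miRNAs had a median of 0.00 (0.03 without it) and all entries one of 0.03 (0.00 without it).

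By the Pearson correlation of log2 CPM over the 8 libraries, given as a description, the bovine entry most like bta-miR-375 was bta-miR-223 of myeloid cells (0.94, and 0.87 without HG replicate 2). It was followed by bta-miR-2419-5p (0.90 and 0.74) and the erythrocyte miRNA bta-miR-451 (0.89 and 0.78). For bta-miR-194 these were bta-miR-186 (0.87 and 0.87), bta-miR-106b (0.80 and 0.75) and bta-miR-30c (0.77 and 0.78). For bta-miR-215 they were bta-miR-874 (0.81 and 0.78), bta-miR-25 (0.78 and 0.72) and bta-miR-17-5p (0.77 and 0.84). For bta-miR-192 they were bta-miR-2285k (0.78 and 0.79), bta-miR-92b (0.74 and 0.93) and bta-miR-379 (0.73 and 0.70). The order depended on HG replicate 2. Without it, bta-miR-223, bta-miR-2419-5p and bta-miR-451 ranked 2, 11 and 9 for bta-miR-375. The entries named for bta-miR-194 then ranked 2, 8 and 7, those for bta-miR-215 6, 11 and 2, and those for bta-miR-192 3, 1 and 8. Over the 8 libraries, the named entries are the highest of 219 or 220 correlations for each miRNA, over libraries that share their scaling. None of the named entries is one of the 4, but bta-miR-192 and bta-miR-215, which share reads, were left out of each other's candidates. Among the 4 themselves the lowest was −0.53, for bta-miR-192 with bta-miR-194 (−0.44 without HG replicate 2). The highest depended on that library. With it, the highest was bta-miR-192 with bta-miR-215 (0.26, and 0.10 without it), and without it bta-miR-194 with bta-miR-375 (0.47, and −0.09 with it).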

How the data were processed

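Small RNA of 8 rumen fluid samples was sequenced by the authors, who demultiplexed with bcl2fastq 2.20, trimmed adapters with Skewer, discarded short and low-quality reads, and ran sRNAbench with Bowtie against UMD3.1 and miRBase, for bovine as well as human entries. The tables the authors deposited give read counts per entry, counts of distinct sequences, and expected counts (reads divided among their entries), which were rounded for the tests. The deposited RPM relative to all reads, and the deposited score relative to miRNA reads, served to recover library totals. The deposited normalized signal was read as a check. In it, bta-miR-194 was higher on the HG diet in 3 of 4 cows, against 4 of 4 by CPM. The lowest bta-miR-192 and bta-miR-194 lay in HG replicate 4 and forage replicate 1, against forage replicates 2 and 4 by CPM, and the lowest bta-miR-215 and bta-miR-375 in forage replicate 4 and HG replicate 2 in both.

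Undivided counts of the 377 entries (of 565) that reached 10 reads in any library entered the quasi-likelihood test of edgeR 4.0.16 (R 4.3.3). Its model held cow and diet, the terms the study used. DESeq2 1.42.0 was an alternative. Pairs rest on the labels: deviations of same-numbered libraries correlated at 0.00, −0.09, 0.05 and −0.01. Those of differently numbered libraries ran from −0.14 (forage 4 with HG 3) to 0.22 (forage 2 with HG 3). The values over all entries therefore do not show the pairing. On data simulated for the same comparison over 377 entries, the test called 8 of 14 entries changed 1.5-fold, 11 of 13 changed 2-fold, 13 of 13 changed 4-fold and 0 of 337 unchanged. The simulation gave all entries the same dispersion, with no cow effect, no library standing apart and no shared reads. Its rates may therefore not hold for the real libraries. Ratios had 0.5 reads added. A count of 0 allows up to 3 reads. Ratios, intervals and plots were made in Python 3.11.15 (scipy 1.17.1, numpy 2.4.6, matplotlib 3.10.9, pandas 2.3.3).

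Besides the 4 miRNAs, the text names entries that share their reads, and marker lists. For each miRNA it also names the 3 bovine entries that correlate best with it, outside entries sharing its reads (at least 100 reads, log2 CPM, prior count 2). The members and lists were chosen with earlier results of these data known. The test of the cow, the fits on reads of 1 locus, the description of shared reads and of distinct sequences, and the lists without HG replicate 2 were added after the data were seen. Nothing in the sources ties the p-values to more than these 4 cows.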

Additional observations from a re-analysis of the deposited data

How the results depend on the processing

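Of 131 alternative values, 9 changed sign and 9 moved, by at least 1 SD for a level or by any difference for a count of calls. Bta-miR-194 kept a positive log2 fold change in 12 of 12 alternatives (0.06 to 0.17, edgeR or DESeq2 adjusted p 0.678 to 0.999), and without the replicate block it was 0.13. Bta-miR-192 ranged from −0.0541 to 0.0105 (adjusted p 0.853 to 0.999), bta-miR-215 from −0.07 to 0.08 (0.881 to 0.999) and bta-miR-375 from −0.256 to 0.00551 (0.678 to 0.999). The fit without the replicate block changed no call. The sign turned for bta-miR-192 without replicate 4 (0.0105), for bta-miR-375 without replicate 2 (0.00551), and for bta-miR-215 with median-of-ratios factors (−0.00867), DESeq2 (−0.00871), divided reads (−0.0143) and no filter (−0.00591), and, leaving out 1 cow at a time, between −0.0692 and 0.0752. The cause was not tested. The ratio of bta-miR-192 to bta-miR-215 changed by 0.0821 without replicate 4, and by −0.108 to 0.0821 over the fits without 1 cow. Fits with 1 cow left out called 0 to 2 entries, none of the 4 miRNAs.

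With divided reads over their sum, the levels on the forage and the HG diet were 1526 and 1475 RPM for bta-miR-192, 690 and 706 for bta-miR-194, 322 and 317 for bta-miR-215, and 444 and 386 for bta-miR-375. By construction that count takes shared reads from all 4 (bta-miR-192 kept 96.2% of its reads, bta-miR-194 62.6%, bta-miR-215 47.8% and bta-miR-375 50.0%) and sets them over a smaller library total. Reads at 1 locus or the union of both, alternatives added after the data were seen, gave changes of −0.01, 0.15 and 0.02 for bta-miR-192, bta-miR-194 and bta-miR-215. Depth limits these comparisons, with 127 to 627 reads per miRNA and library. The 147 reads of bta-miR-375 in HG replicate 2, for example, have a 95% Wilson interval of 372 to 514 RPM.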
